A study of Mus musculus with 8 samples.

Results

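The nuclear-encoded subunits of the respiratory chain and of ATP synthase were examined in lumbar intervertebral discs of mice with proteoglycan-induced spondylitis. Members were the genes named alone by at least 1 probe set of the array, with a symbol of the Ndufa, Ndufb, Ndufc, Ndufs or Ndufv series, Sdha to Sdhd, Uqcr, Cox4 to Cox8 or Atp5. This gave 81 of the 18193 genes measured, on 164 of 34945 probe sets that name 1 gene. Complex I had 35 members, complex II 4, complex III 8, complex IV 17 and complex V 17. Ndufa4, a subunit known to belong to complex IV, and its relative Ndufa4l2, which is in no complex, were counted under complex I by their symbols. A single probe set measured 33 members and 2 to 6 measured the other 48, in 17 of which they differed in sign. The immunized group was 5 samples from female BALB/c mice given cartilage proteoglycan with 100 µg of protein, emulsified with 2 mg of the adjuvant dimethyldioctadecylammonium bromide (DDA), on days 0, 21 and 42. The naive group was 3 samples from female BALB/c mice of matching age without immunization, so proteoglycan and adjuvant cannot be told apart. Each sample was total RNA of 6 pooled discs, and the ages of the mice are not given in the sources used here. The comparison asks which genes differ in discs of mice with spondyloarthropathy.

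Complex I passes electrons from NADH, and complex II from succinate, to coenzyme Q. Complex III moves them on to cytochrome c, and complex IV (cytochrome c oxidase) to oxygen. Complexes I, III and IV pump protons across the inner mitochondrial membrane, and complex V (ATP synthase) uses their return to make ATP. Muscle and brown fat hold much of this machinery, while disc cells live with little oxygen and draw largely on glycolysis. Some complex IV subunits have isoforms of muscle, testis or low-oxygen tissue in place of the ubiquitous ones.

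Each value is a gene's mean log2 signal after the 8-array median of every probe set has been taken off, so 1 unit is a 2-fold difference, and levels of different genes cannot be compared. Differences are immunized minus naive, with limma's standard error (SE), and a gene was called at a limma p adjusted over all genes under 0.05. The spacing of the printed values gives a coarse level. In 129 of the 164 member probe sets (78.7%) the lowest array was at 8 or more on the log2 scale, against 32.5% of all 45101 probe sets, and 76 of the 81 members had such a probe set. Of 12 chondrocyte markers 11 had one, as had 6 of 7 nucleus pulposus markers, and also all 16 skeletal muscle markers. Array medians lay between -0.012 and 0.016. Because these are bulk samples, fewer cells of a type and less RNA per cell cannot be told apart. No scan date or batch was available.

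The promoters of both members that passed the test, Cox7c and Ndufa7, are shown 5′ to 3′ on the gene's strand. They were taken from RefSeq, GRCm38.p6, from 250 bases before to 50 bases from the start. A short YY1 core motif, ATGGCG, was found in both. YY1 is a transcription factor with known sites in genes of the respiratory chain. That of Cox7c lies at chr13:86046746-86047045 on the minus strand and that of Ndufa7 at chr17:33824322-33824621 on the plus strand, which has 2 starts in the table. Capitals mark the motifs searched for, which were ATGGCG and, in Ndufa7, the E-box CACGTG.
Cox7c: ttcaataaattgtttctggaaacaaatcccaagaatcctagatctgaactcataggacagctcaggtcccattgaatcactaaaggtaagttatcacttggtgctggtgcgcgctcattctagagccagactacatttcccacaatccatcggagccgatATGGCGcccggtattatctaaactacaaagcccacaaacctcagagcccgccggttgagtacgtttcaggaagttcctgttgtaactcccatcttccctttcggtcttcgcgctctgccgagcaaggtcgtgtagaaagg
Ndufa7: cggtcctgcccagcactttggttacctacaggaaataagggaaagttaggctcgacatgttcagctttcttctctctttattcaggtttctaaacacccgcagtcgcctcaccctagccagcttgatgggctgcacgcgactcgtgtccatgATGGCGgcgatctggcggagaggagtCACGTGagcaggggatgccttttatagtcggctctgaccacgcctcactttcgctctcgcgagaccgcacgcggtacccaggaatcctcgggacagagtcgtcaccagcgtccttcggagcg
A promoter was in the table for 66 of the 81 members, 71 promoters in all. On either strand, ATGGCG was found in 19 of these (26.8%), against 8.93% of all 32851 promoters of the same length. The ETS core CGGAAG, as bound by GABP, was found in 42.3%, against 16.9% of all promoters. The centre of the NRF1 motif, CGCATGCG, was found in 11.3%, against 1.87%. The E-box was found in 9.86%, against 7.15%. Matches of different motifs were counted separately even where they overlap, and a match describes letters only, not binding.

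Of the 81 members, Cox7c was higher and Ndufa7 lower in immunized discs. Over all genes 4.46% were called higher and 4.68% lower. The members' 2 calls were thus below the share of all genes in both directions. At an unadjusted p under 0.05, 4 members were higher and 5 lower, against 12.9% and 18.2% of all genes. In 7 members (8.64%), 1 higher and 6 lower, no immunized sample overlapped a naive one, against 23.4% of all genes. The median difference of the members was -0.03 (33 positive, 48 negative), beside -0.04 for all genes. It was -0.03 in complex I, 0.02 in complex II, -0.08 in complex III, -0.06 in complex IV and -0.01 in complex V.

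Most members differed little. The difference was smaller than 0.25 in either direction in 73 members (90.1%), against 64.6% of all genes. In 70 members (86.4%) the 95% interval of the difference lay between -0.5 and 0.5, against 59.6% of all genes. The median SE was alike, 0.106 in members and 0.111 in all genes. Among genes with a probe set at 8 or more on every array, 71 of 76 members (93.4%) had a difference smaller than 0.25, against 60.9% of 8560 genes. Array weights were 3.98 for immunized replicate 1, 2.51 for naive replicate 2 and 0.273 for naive replicate 1. Immunized replicate 1 had the lowest member median of its group, and naive replicate 2 the highest of its own. With these weights 2 members were called higher and 15 lower, while 32.4% of all genes were called. The members' median was then -0.14, beside -0.04 for all genes.

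**Figure D1:**
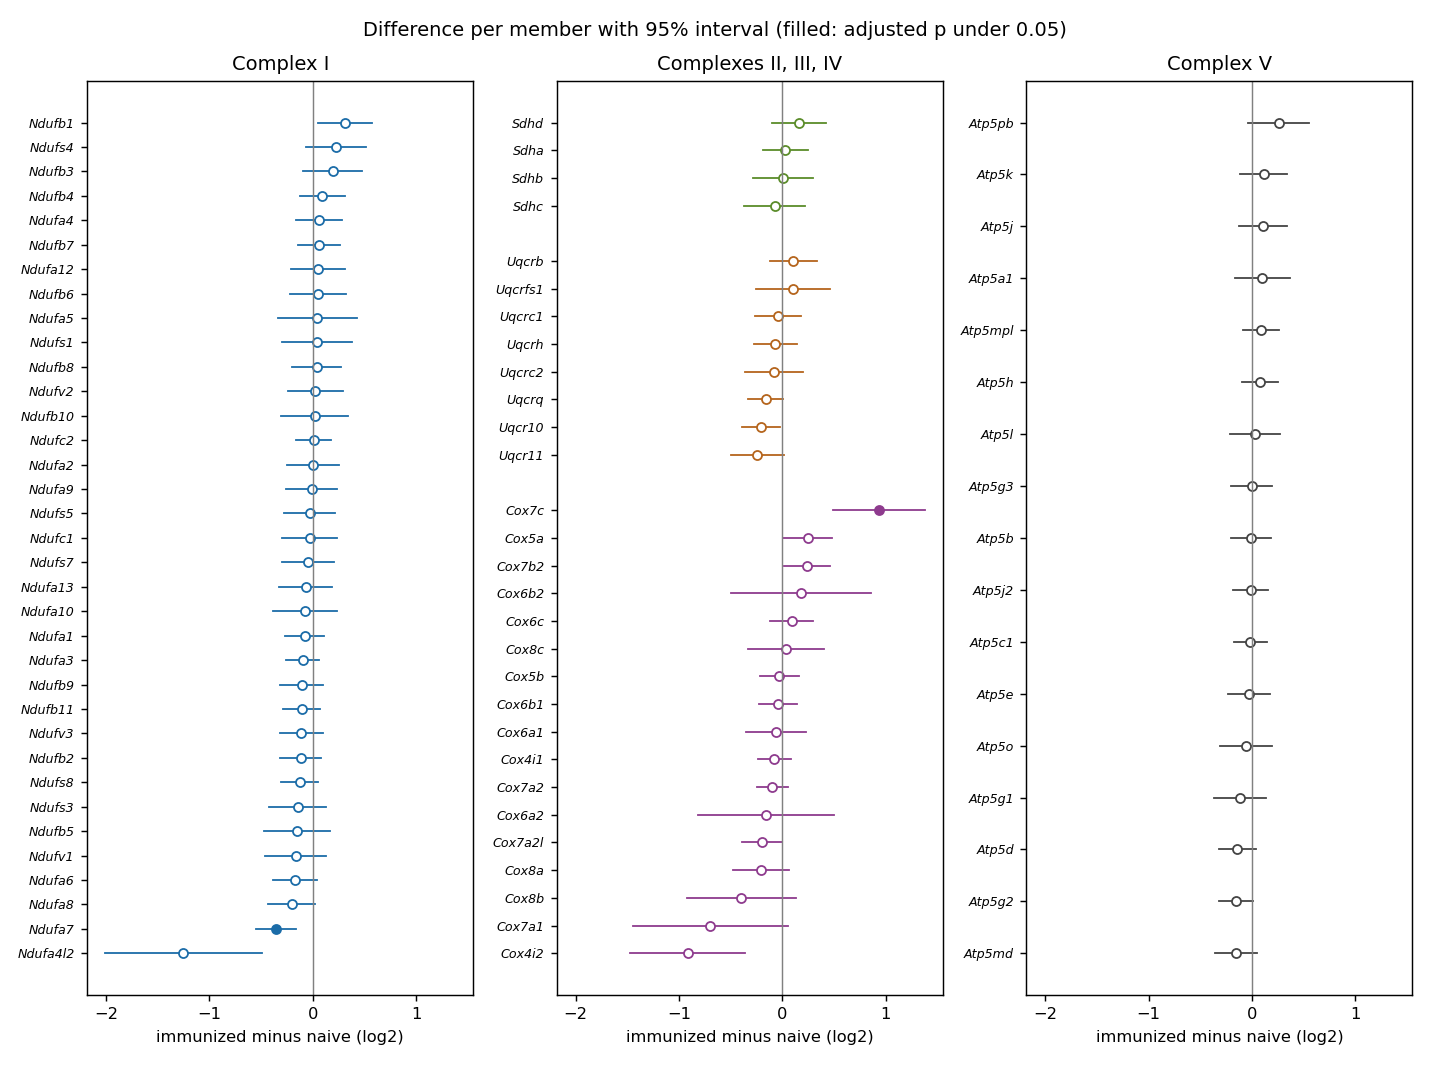
Difference in log2 expression, immunized minus naive, for each of the 81 members by complex (5 immunized, 3 naive samples). Points are limma's estimates, bars their 95% intervals, and filled points mark Cox7c and Ndufa7, whose adjusted p was under 0.05; most intervals cross 0, and Ndufa4l2 and Cox4i2 lie far to the left without passing.

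In complex I, 1 of 35 members passed. Ndufa7, an accessory subunit of the matrix arm, read -0.19, 0.06, -0.14, -0.06 and -0.24 in immunized replicates 1 to 5, and 0.29, 0.19 and 0.25 in naive replicates 1 to 3. All immunized samples lay below all naive ones, with immunized replicate 2 nearest to them. The difference was -0.36 ± 0.085 (SE, n = 5 and 3, limma adjusted p = 0.0384), or 0.78-fold. All 5 probe sets of Ndufa7 gave it, from -0.41 to -0.32, and in each the groups were apart. The call held without immunized replicate 2 (adjusted p = 0.0148) and ended without any other single sample (-0.38 to -0.33, adjusted p from 0.0591 without immunized replicate 4 to 0.0980 without immunized replicate 1).

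No other complex I subunit passed. Among the 6 core subunits of the matrix arm, most of which carry the flavin or iron-sulfur clusters, differences lay between -0.16 and 0.04, with 4 negative. Ndufs7, which holds the last cluster before coenzyme Q, differed by -0.05 ± 0.110. The 28 accessory subunits ranged from -0.36 (Ndufa7) to 0.31, with a median of -0.02. Ndufb1, a membrane-arm subunit, was at the upper end. It read 0.10, -0.13, 0.17, 0.08 and 0.39 in immunized discs and -0.22, -0.08 and -0.27 in naive discs. Immunized replicate 2 lay among the naive samples in Ndufb1, and the difference of 0.31 ± 0.115 did not pass (adjusted p = 0.105), though it did without that sample (0.38, adjusted p = 0.0403). Ndufa8, an accessory subunit known to be imported into the intermembrane space, differed by -0.20 ± 0.10 with overlap. Ndufa2, an accessory subunit of the matrix arm, had the smallest difference of complex I, 0.00 ± 0.111. The probe sets of Ndufs7, Ndufc1, Ndufc2, Ndufb8, Ndufa5 and Ndufa12 differed in sign, and for each the mean difference lay between -0.05 and 0.06.

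The 4 subunits of complex II, which is also the succinate dehydrogenase of the tricarboxylic acid cycle, did not pass. The flavoprotein Sdha differed by 0.03 ± 0.094 and the iron-sulfur protein Sdhb by 0.01 ± 0.129. The 4 probe sets of Sdha ran from -0.15 to 0.22. The membrane anchors Sdhc and Sdhd differed by -0.07 ± 0.130 and 0.16 ± 0.115. In all 4 the interval lay between -0.5 and 0.5.

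In complex III, 0 of 8 members passed in limma (0 higher and 1 lower, unadjusted). The core proteins Uqcrc1 and Uqcrc2 differed by -0.04 ± 0.099 and -0.08 ± 0.122. Among the 5 small accessory subunits, 4 had a negative difference. Uqcr10 read -0.13, -0.03, -0.17, 0.07 and -0.16 in immunized discs and 0.11, 0.18 and 0.08 in naive discs. Its groups were apart by a small gap, and the difference was -0.21 ± 0.081 (adjusted p = 0.121). Among its 3 probe sets the groups were apart only in that at -0.27. Uqcrq, another accessory subunit, read -0.13, 0.02, -0.07, 0.05 and -0.04 in immunized discs and 0.06, 0.20 and 0.11 in naive discs. Its groups were also just apart (-0.16 ± 0.074, adjusted p = 0.178). The 4 probe sets of Uqcrq ran from -0.31 to -0.01, and only that at -0.31 had its groups apart. Uqcr11, a further small subunit, differed by -0.24 ± 0.112 with overlap. Uqcrb, a subunit near the coenzyme Q sites, differed by 0.10 ± 0.10, its 2 probe sets by 0.23 and -0.02.

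In complex IV the members ranged more widely, from -0.91 to 0.93. Cox7c, a small ubiquitous subunit of the membrane part, was the only member called higher. It read 0.12, -0.09, 0.33, 0.11 and 0.42 in immunized discs and -1.26, -0.68 and -0.33 in naive discs. All immunized samples lay above all naive ones, and the naive samples were more spread (SD 0.20 in immunized, 0.47 in naive). The difference was 0.93 ± 0.198 (adjusted p = 0.0300), or 1.91-fold. Both probe sets gave it, at 0.92 and 0.95, but naive replicate 1 read -0.87 in the first and -1.64 in the second. The lowest array of both was between 4 and 8 on the log2 scale. The call held without immunized replicate 2 or naive replicate 3, and ended without immunized replicate 1 (adjusted p = 0.0754), 3 (0.0581), 4 (0.0504) or 5 (0.0624), or naive replicate 1 (0.0636) or 2 (0.0858). Without naive replicate 1 the difference was 0.68, and over the other single samples it lay between 0.87 and 1.15.

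None of the other 8 ubiquitous complex IV subunits passed in limma (1 higher and 0 lower, unadjusted), and their differences lay within 0.25 of 0. Cox4i1, the ubiquitous form of the regulatory subunit IV, differed by -0.08 ± 0.070, Cox6a1 by -0.06 ± 0.128, Cox6b1 by -0.04 ± 0.082 and Cox5b by -0.03 ± 0.085. Cox7a2, the form of subunit VIIa found outside muscle, was below in all immunized samples (-0.07 to 0.01, against 0.02 to 0.13 in naive discs), with a difference of -0.10 ± 0.066 (adjusted p = 0.335). Cox5a, named after its value was seen, differed by 0.24 ± 0.106 (adjusted p = 0.158). Cox7a2l, a factor that joins complexes III and IV in supercomplexes, differed by -0.19 ± 0.085 (adjusted p = 0.156).

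The largest negative differences belonged to a pair of isoforms linked to low oxygen, and neither passed. Ndufa4l2, a relative of the complex IV subunit Ndufa4 that is induced by HIF-1, read -0.40, 0.40, -0.91, -0.87 and -1.31 in immunized discs and 0.55, 0.45 and 0.90 in naive discs. All immunized samples lay below the naive ones, but replicate 2 by only a small gap. The difference was -1.25 ± 0.336 (adjusted p = 0.0508), or 0.42-fold. Cox4i2, the form of subunit IV of lung and of cells at low oxygen, read -0.24, 0.24, -0.35, -0.82 and -0.93 in immunized discs and 0.52, 0.30 and 0.67 in naive discs. Here too the groups were apart and replicate 2 was nearest (-0.91 ± 0.246, adjusted p = 0.0511). Both genes are also known markers of pericytes.

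Both isoforms passed without immunized replicate 2 (-1.51, adjusted p = 0.00499 for Ndufa4l2; -1.08, adjusted p = 0.0102 for Cox4i2). They also passed with a trended and robust variance (0.0496 and 0.0473), with array weights (0.00974 and 0.0150) and without probe sets that had an array below 4 (0.0487 and 0.0489). They did not pass with quantile normalization of the centred values (0.0684 and 0.0878) or with array medians subtracted (0.0535 and 0.0539). Nor did they without probe sets ending in _x_at or _s_at (0.05107 and 0.05115) or with the replicate number as a block (0.2054 and 0.1885). Both also failed without both samples whose descriptions join sample numbers (0.208 and 0.204). Without any single sample other than immunized replicate 2 the isoforms failed too. The adjusted p reached 0.129 and 0.128 without naive replicate 3. Their partners stayed close to 0, Ndufa4 at 0.06 ± 0.099 and Cox4i1 at the value above. The isoform minus its partner averaged -0.68 ± 0.73 in immunized and 0.63 ± 0.25 in naive discs for Ndufa4l2 (SD, n = 5 and 3; two-sided exact permutation p = 0.0536). For Cox4i2 it averaged -0.37 ± 0.52 in immunized and 0.46 ± 0.23 in naive discs (exact p = 0.0714). Over the 7 pairs compared both had an adjusted p of 0.25, and the smallest p that the 56 assignments allow is 0.0179. Immunized replicate 2 lay above naive replicate 2 in both of these pair differences.

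Several markers of chondrocytes and nucleus pulposus cells were lower too, beside 4.68% of all genes called lower. Of 12 chondrocyte markers 4 fell (Col11a2, Sox9, Col9a3 and Col9a1), and the list mean was -0.94 to 0.30 in immunized discs and 0.34 to 0.64 in naive discs. Of 7 nucleus pulposus markers Krt19 fell, and the list mean was -0.92 to 0.40 in immunized discs and 0.44 to 0.60 in naive discs. Immunized replicate 2 had the highest mean of the immunized samples in both lists, as it had the highest Ndufa4l2 and Cox4i2. It also had the highest immunized mean of 7 adipocyte markers (0.45), so this order is not particular to disc cell markers. The adipocyte mean overlapped between the groups, at -0.71 to 0.45 in immunized discs and -0.36 to 0.30 in naive discs. The mean of 8 fibroblast and annulus markers overlapped between the groups, at -0.68 to 0.31 in immunized discs and 0.02 to 0.19 in naive discs, and was highest in immunized replicate 4, where Ndufa4l2 was at -0.87. The part of these cells in the isoform differences was not tested.

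**Figure D2:**
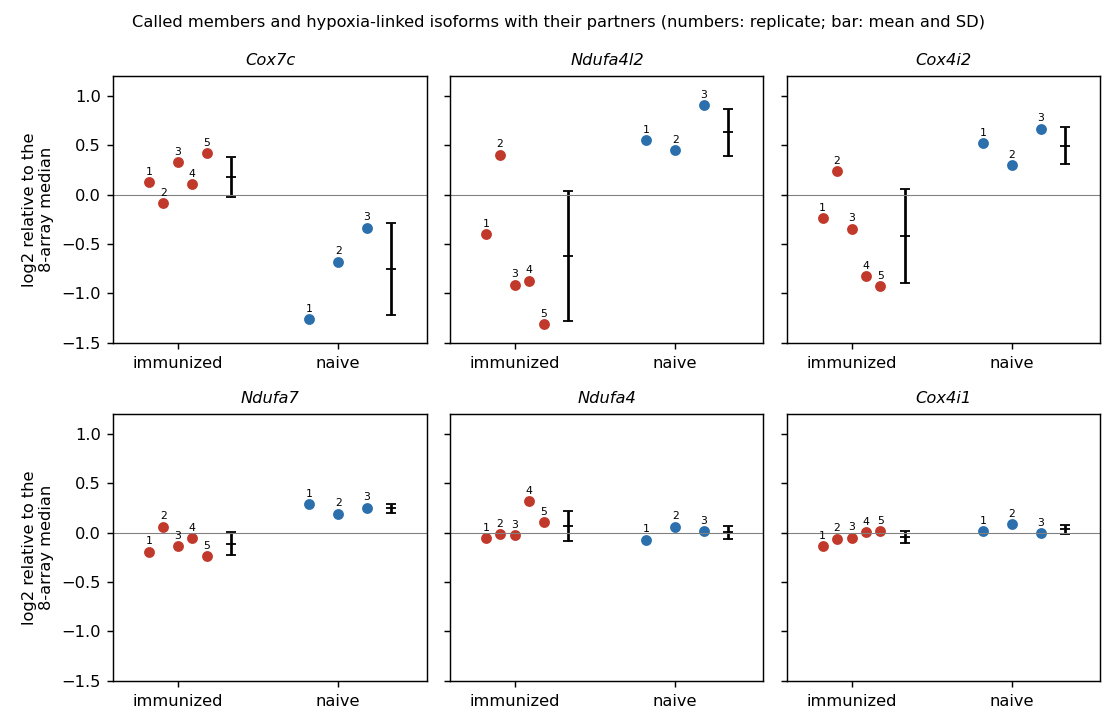
Log2 expression relative to the 8-array median in each sample for Cox7c, Ndufa7, the low-oxygen isoforms Ndufa4l2 and Cox4i2 and their partners Ndufa4 and Cox4i1. Points carry the replicate number, immunized left and naive right, and bars give the mean and SD (n = 5 and 3); immunized replicate 2 lies nearest to the naive samples in Ndufa4l2 and Cox4i2, at 0.40 and 0.24.

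The isoforms of striated muscle did not pass. Cox7a1, the heart and muscle form of subunit VIIa, read -0.62, -0.08, -0.74, 0.56 and 0.02 in immunized discs and -0.02, 1.14 and 0.45 in naive discs. Cox8b read -0.52, 0.06, -0.45, 0.49 and -0.30 in immunized discs and -0.06, 0.48 and 0.33 in naive discs. Cox6a2 read -0.39, 0.03, -0.59, 0.43 and 0.28 in immunized discs and -0.37, 0.71 and 0.00 in naive discs. In all 3 genes immunized replicate 4 and naive replicate 2 were the highest of their groups, immunized replicates 1 and 3 the lowest of theirs, and the groups overlapped. The differences were -0.70 ± 0.332 for Cox7a1, -0.40 ± 0.234 for Cox8b and -0.16 ± 0.290 for Cox6a2 (adjusted p = 0.187, 0.283 and 0.746). With array weights Cox7a1 (-1.19) and Cox8b (-0.70) were called lower (adjusted p = 0.0143 and 0.0283).

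The testis isoforms Cox6b2, Cox7b2 and Cox8c differed by 0.18 ± 0.299, 0.24 ± 0.10 and 0.03 ± 0.163 and did not pass. The only probe set of Cox7b2 had its lowest array between 2 and 4 on the log2 scale, the lowest class of any member. Cox6b2 ranged from -0.27 to 0.74 in immunized discs and from -0.49 to 0.68 in naive discs.

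In complex V, 0 of 17 members passed in limma (0 higher and 0 lower, unadjusted). The catalytic head subunits Atp5a1 and Atp5b differed by 0.10 ± 0.117 and -0.01 ± 0.087. Of the 3 Atp5a1 probe sets, that with its lowest array below 8 gave 0.32 and the others -0.01. The central stalk subunits, which turn within the head, lay between -0.14 (Atp5d) and -0.02 (Atp5c1). The peripheral stalk ranged from -0.06 to 0.26, the upper value being that of Atp5pb (0.26 ± 0.130, adjusted p = 0.209). In Atp5pb naive replicate 1 (-0.54) lay below all others. The c ring is encoded by 3 genes for the same mature protein, and Atp5g1, Atp5g2 and Atp5g3 differed by -0.12 ± 0.111, -0.15 ± 0.073 and 0.00 ± 0.088. The probe sets of Atp5g2 disagreed. One differed by -0.45 ± 0.089 with no overlap (adjusted p = 0.0293 when probe sets were tested singly), the others by -0.05 and 0.03. The lowest array was at 8 or more in that probe set and below 8 in the others. Atp5md, a small membrane subunit, differed by -0.15 ± 0.091.

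Many members differed between samples of the same group in a like order. Over the 73 members other than tissue isoforms, the median was -0.10, -0.02, -0.07, 0.15 and 0.07 in immunized replicates 1 to 5 and -0.05, 0.14 and 0.00 in naive replicates 1 to 3. Immunized replicate 4 and naive replicate 2 were the high samples, and the groups overlapped. Within the immunized group, replicate 4 was the highest for 50 of the 73 members (68.5%), against 17.8% of all genes. Within the naive group, replicate 2 was the highest for 60 (82.2%), against 30.5% of all genes. Immunized replicate 1 was the lowest of its group for 33 members (45.2%, against 11.2% of all genes) and replicate 3 for 24 (32.9%, against 24.4%). Naive replicate 1 was the lowest of its group for 47 (64.4%, against 42.7% of all genes). The medians of complexes I, II, III and V were also highest in immunized replicate 4 and naive replicate 2. Among the 10 complex IV members other than tissue isoforms, the median was instead highest in immunized replicate 5 (0.06, against 0.03 in replicate 4), and naive replicate 2 (0.04) was close to naive replicate 1 (0.03).

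**Figure D3:**
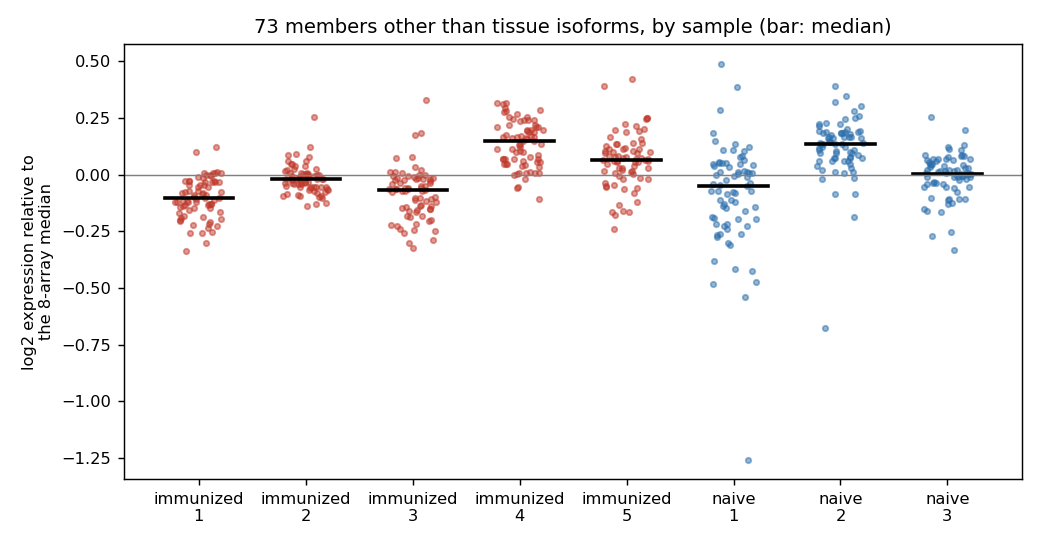
Log2 expression relative to the 8-array median of the 73 members other than tissue isoforms in each sample, 1 point a gene, with the median as a bar. Immunized replicate 4 (0.15) and naive replicate 2 (0.14) have the highest medians, immunized replicate 1 (-0.10) the lowest, and the lowest point of naive replicate 1 is Cox7c.

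Muscle and brown fat are both rich in mitochondria. The mean of 16 skeletal muscle markers was -0.22, 0.21, -0.33, 0.30 and -0.01 in immunized discs and -0.51, 0.27 and 0.04 in naive discs, highest in immunized replicate 4 and naive replicate 2. None of them passed in limma (0 higher and 1 lower, unadjusted). The mean of 7 slow muscle markers was 0.47, 0.10, -0.21, -0.11 and 0.20 in immunized discs and -0.93, 0.83 and -0.51 in naive discs, so it was highest in immunized replicate 1, where the members were lowest, and in naive replicate 2. The mean of 5 brown adipocyte markers was -1.04, -0.55, -0.23, 1.01 and -0.67 in immunized discs and 0.17, 0.28 and 0.62 in naive discs, highest in immunized replicate 4 and naive replicate 3. Limma called 0 of them, and 0 reached an unadjusted p of 0.05. Ucp1, which uncouples respiration in brown fat, was at 2.09 in immunized replicate 4, against -3.56 to -0.83 in the other immunized and 0.83 to 1.41 in naive discs. The mean of 8 fibroblast and annulus markers was likewise highest in immunized replicate 4 (0.31) and naive replicate 2 (0.19). That of 8 osteoclast markers was highest in immunized replicate 4 (0.62) and naive replicate 1 (0.11). The part of any of these tissues and cells in the members' values was not tested. With immunized replicate 4 and naive replicate 2 left out, a setting chosen after the data were seen, 0 members were called in limma (7 higher and 3 lower, unadjusted) and 0 of all genes.

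Macrophage markers moved with the groups, with 7 of 10 called higher, against 4.46% of all genes. Their list means were 0.02 to 0.90 in immunized discs and -0.95 to -0.60 in naive discs. Of the 64 genes on the other 8 marker lists (slow muscle, adipocyte, osteoclast, neutrophil, erythroid, fibroblast and annulus, plasma cell, dividing cell) 7 were higher: 3 neutrophil, 3 plasma cell and 1 dividing cell gene.

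**Figure D4:**
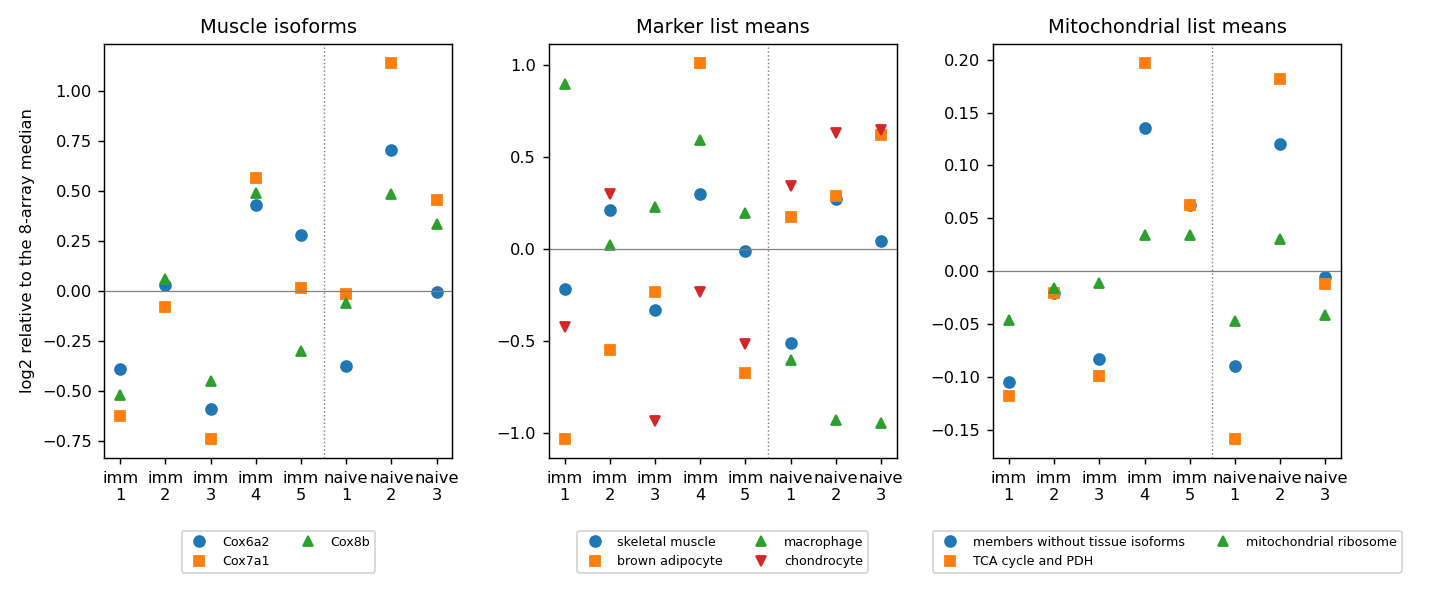
Log2 expression relative to the 8-array median in each sample (imm, immunized) of the muscle isoforms (left), and sample means of marker lists (centre) and of mitochondrial gene lists (right; TCA, tricarboxylic acid; PDH, pyruvate dehydrogenase). Muscle isoforms are highest in immunized replicate 4 and naive replicate 2, as are the tricarboxylic acid cycle genes (0.20 and 0.18), while the chondrocyte mean is higher in every naive sample (0.34 to 0.64) than in any immunized one.

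Other mitochondrial genes were described from lists. Of the 178 distinct genes on these lists 5 were called higher and 1 lower, against 4.46% and 4.68% of all genes. Of 43 assembly factors 1 rose, Sco1, a copper chaperone of complex IV, by 0.33 ± 0.080 (adjusted p = 0.0413), while the median was -0.03. Sco1 read -0.06 to 0.17 in immunized discs and -0.36 to -0.19 in naive discs. The complex III factor Uqcc2 (-0.35 ± 0.097, adjusted p = 0.0544) and the complex IV factor Cox16 (0.40 ± 0.118, 0.0649) did not pass. Of 17 genes of the tricarboxylic acid cycle and pyruvate dehydrogenase 0 were called by limma (1 was lower without adjustment; median 0.01). Their sample means, like the medians of the 73 members, were highest in immunized replicate 4 (0.20) and naive replicate 2 (0.18). Of 9 genes of coenzyme Q synthesis 0 passed in limma (0 unadjusted), with a median of -0.06 and the largest difference in Coq9 (-0.23 ± 0.104).

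Of 76 mitochondrial ribosomal protein genes 3 rose, Mrpl18 (0.80 ± 0.159), Mrps22 (0.47 ± 0.098) and Mrpl32 (0.52 ± 0.115). Mrpl4 (-0.34) was the 1 that fell, and the list median was -0.01. Over all genes 4.46% rose and 4.68% fell at the same threshold. Of 14 genes of membrane carriers and import, Tomm70a, an import receptor, rose by 0.40 ± 0.093 (adjusted p = 0.0365; list median -0.02). Tomm40, the import channel, differed by -0.34 ± 0.111 and did not pass. Of 14 regulators of respiratory genes limma called 0 (2 were higher and 2 lower without adjustment; median 0.09), with Gabpa, the DNA-binding subunit of GABP, at 0.49 ± 0.152 (adjusted p = 0.0734) and the fatty acid regulator Ppara at -0.59 ± 0.194 (0.0828). Cytochrome c itself, Cycs, differed by 0.23 ± 0.134, its testis form Cyct by -0.10 ± 0.075 and cytochrome c1, Cyc1, by -0.08 ± 0.099. The complex I acyl carrier Ndufab1 (0.30 ± 0.157) and the ATP synthase inhibitor Atpif1 (0.12 ± 0.157) did not pass either.

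Some subunits were also read by probe sets that name several genes, and these were kept apart from the members. A probe set that names Ndufa13 and Yjefn3 was lower in all immunized samples (-0.15 to 0.05, against 0.22 to 0.31 in naive discs), by -0.35 ± 0.081 (adjusted p = 0.0415 over 45037 probe sets). A second such probe set differed by 0.04, and the probe set that names Ndufa13 alone by -0.07 ± 0.113. For Ndufb4 the shared probe sets differed by -0.18 and -0.26 and its own by 0.09. Ndufa11 and Ndufs6 were read only together with a near copy, at -0.36 and -0.25 for Ndufa11 and -0.12 for Ndufs6, and 0 of these passed in limma. Which of the genes named gave these signals cannot be told apart.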

How the data were processed

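Biotinylated cRNA was hybridized to Affymetrix arrays, and the authors deposited log2 values made by RMA (background correction, quantile normalization and summary of probes), per the submitters' processing notes, with no version named. The deposited log2 values have a median of 0 for every probe set (within 5e-07), which leaves differences between samples unchanged. Probe sets were named through the platform annotation, 64 control probe sets were left out, and 932 naming several genes were kept apart. Each gene was the mean of its probe sets. Immunized and naive samples, grouped by title, were compared in limma 3.58.1 under R 4.3.3, by lmFit and eBayes without covariates; p-values are two-sided and Benjamini-Hochberg adjusted, and the test was checked on simulated data. The number of arrays limits the precision.

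The members, the 8 lists of mitochondrial genes and the 13 marker lists were chosen with earlier results of these data known. Genes named were those called, the 4 largest and the smallest moderated t of each complex, isoforms and partners, members whose probe sets differed in sign, and up to 3 genes a list. Cox5a, Atp5b and Mrpl4 fell outside that rule. The labels speak of 5 immunized and 3 naive mice, while the descriptions of immunized replicate 1 and naive replicate 3 combine a pair of sample numbers. Pooling of mice there is not stated, and p-values measure the spread between these samples. Immunized and naive samples of the same replicate number had correlations of deviations of -0.05, 0.24 and -0.10. Those of different numbers had -0.38 to 0.33. These correlations cannot settle whether samples of the same number were handled together. Other settings tried were quantile normalization, median centring, omission of _x_at and _s_at probe sets, trended and robust variance, array weights and the replicate block. Omission of joined or single samples, single probe sets, a level filter and other thresholds were also tried. Quantile normalization was applied to the deposited centred values, which RMA had already quantile normalized before centring. It therefore also evened the spread of the arrays, whose SD ran from 0.209 to 0.411.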

Additional observations from a re-analysis of the deposited data

How the results depend on the processing

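With all samples 1 member was called higher, 1 lower, and 1663 genes in all. Quantile normalization of the centred values gave 1 and 0 of 908, and the trended and robust variance 1 and 3. Single probe sets gave 1 and 3 (counted as probe sets, the 3 belonging to Ndufa7 and Atp5g2). The level filter (no array below 4) also gave 1 and 3. Array weights gave 2 and 15 of 5900, with medians of -0.14 over the members, -0.16 in complex I and -0.12 in complex IV. The median over all genes was then -0.04. Without both samples with joined numbers, and without naive replicate 2 and immunized replicate 4, 0 members and 0 genes passed in limma (unadjusted, 1 higher and 3 lower, and 7 higher and 3 lower, members). At an adjusted p under 0.01, 0 members and 54 genes passed in limma, and under 0.10 1 higher and 3 lower (Ndufa7, Ndufa4l2 and Cox4i2) of 3783. Leaving out single samples gave 0 to 2 members higher, 0 to 3 lower and 21 genes (without naive replicate 2) to 3003 genes (without immunized replicate 2). The members' median then lay between -0.07 and 0.03. With the replicate number as a block, 0 members and 7 genes passed in limma (1 member higher and 8 lower, unadjusted). The complex IV median was then -0.11. Replicates 4 and 5 exist only in the immunized group, so under the block each difference rested on replicates 1 to 3 of both groups. Whether samples of the same number were handled together is not known. The Cox7c and Ndufa7 calls ended under the block (adjusted p = 0.113 and 0.204), and that of Ndufa7 with quantile normalization (0.0755). No difference of a named gene turned its sign as a call. The cause of these shifts was not tested. Arrays at the lowest level classes, as for Cox7b2, limit what their values show.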
